A study of Mus musculus with 20 samples.

Results

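The genes described are 9 immediate early genes, Fos, Fosb, Fosl1, Jun, Junb, Egr1, Ier3, Atf3 and Klf6, together with Myc. They were chosen by symbol, with earlier results of these data known, and are 10 of the 24411 symbols in the count table of this kidney RNA-sequencing series. The series holds 20 C57BL/6 mice, 5 in each of 4 groups, and 1 whole-kidney library per mouse. Mutants carried Pkd2fl/fl; Pax8rtTA; TetOCre, in which doxycycline (DOX) switches on Cre from the Pax8 promoter in proximal tubules, distal tubules and collecting ducts, so that other kidney cells keep Pkd2. Controls were Pkd2fl/fl littermates that lacked either the Pax8rtTA or the TetOCre module, and the labels do not say which. Both genotypes received DOX at 50 mg/kg by daily injection at P27 to P29, and all kidneys were taken at P125. The groups were mutants and controls of each sex, spread over 3 litters (A, B and C), and mice are numbered 1 to 5 within a group. Each group holds at least 1 mouse of each litter.

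Immediate early genes are transcribed within minutes of a stimulus, without new protein synthesis, because the factors that act on their promoters are already in the cell. Proteins of the Fos and Jun families pair through leucine zippers into AP-1 dimers that bind DNA, Egr1 and Klf6 are zinc finger factors, and Atf3 is a stress-induced zipper protein that can pair with Jun proteins. Myc pairs with Max and acts on genes of growth and metabolism. In the kidney these genes are known to respond to tubular injury, and Myc has long been studied in cystic epithelium.

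Promoters from 250 bases before to 50 bases after the annotated start were read from RefSeq for 7 of the 10 genes, in build GRCm38.p6. The 4 shown here are those of Fos, the best known of the set, and of Junb, Klf6 and Atf3, whose levels are followed through the comparisons below. They are written 5′ to 3′ on the gene's own strand, and capitals mark a TATAAA match in Fos and Junb and a CACGTG match in Klf6. The Fos promoter lies at chr12:85473640-85473939 on the plus strand, Junb at chr8:84978699-84978998 on the minus strand, Klf6 at chr13:5861239-5861538 on the plus strand and Atf3 at chr1:191183284-191183583 on the minus strand.
Fos: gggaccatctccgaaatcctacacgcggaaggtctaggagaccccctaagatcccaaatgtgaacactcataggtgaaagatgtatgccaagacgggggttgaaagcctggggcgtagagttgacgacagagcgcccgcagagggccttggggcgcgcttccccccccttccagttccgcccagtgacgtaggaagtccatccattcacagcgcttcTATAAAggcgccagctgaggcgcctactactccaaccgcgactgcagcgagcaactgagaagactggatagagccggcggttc
Junb: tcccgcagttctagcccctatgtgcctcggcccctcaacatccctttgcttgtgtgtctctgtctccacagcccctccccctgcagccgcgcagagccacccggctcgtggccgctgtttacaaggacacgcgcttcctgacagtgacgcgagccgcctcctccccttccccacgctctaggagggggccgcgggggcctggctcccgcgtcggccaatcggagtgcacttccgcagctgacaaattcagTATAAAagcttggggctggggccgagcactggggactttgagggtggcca
Klf6: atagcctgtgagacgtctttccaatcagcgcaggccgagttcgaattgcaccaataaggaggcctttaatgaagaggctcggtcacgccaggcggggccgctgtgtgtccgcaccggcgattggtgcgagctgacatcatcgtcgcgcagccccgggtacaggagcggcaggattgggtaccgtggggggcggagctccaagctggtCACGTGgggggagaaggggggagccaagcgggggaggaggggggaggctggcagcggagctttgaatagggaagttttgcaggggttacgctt
Atf3: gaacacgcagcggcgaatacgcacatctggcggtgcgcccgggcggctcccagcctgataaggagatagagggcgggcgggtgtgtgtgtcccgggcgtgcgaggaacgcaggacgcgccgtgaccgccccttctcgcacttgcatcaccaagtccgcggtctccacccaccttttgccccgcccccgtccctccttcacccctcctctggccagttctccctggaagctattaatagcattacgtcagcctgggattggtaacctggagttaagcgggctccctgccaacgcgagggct
The letters TATAAA, searched on both strands, start at -33 relative to the Fos start and at 1 in Junb, and 13.6% of all 32851 promoters of this length hold them. Positions are relative to the RefSeq start, which for Junb, Klf6 and Atf3 is not the outer start of the gene in GENCODE M21. GENCODE M21 starts Junb at chr8:84978718, inside the window and downstream of the RefSeq start. It starts Klf6 at chr13:5861482, inside the window and upstream of the RefSeq start, and Atf3 at chr1:191218039, outside the window shown. The Myc and Max E-box letters CACGTG start at -43 in Klf6, and 7.15% of all promoters hold them. None of the 7 promoters held the AP-1 letters TGANTCA (7.81% of all promoters), the full cAMP response element TGACGTCA (1.79%) or the CArG box of serum response factor (1.63%), which says only that these letters are absent from these windows. The 7 promoters were between 54.0% and 68.3% G and C, against a median of 52.7% over all promoters.

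Libraries held 11307741 to 19324073 counts. Female mutant 4 stood apart, with 14850 genes detected against 16776 to 17724 in the other 19 mice, so results that turn on it are given with and without it. It had 76 genes at 1 count, against 708 to 859 in the other mice. Levels are given as CPM, counts relative to the size of the library after TMM scaling. Pkd2 was at 250 to 332 CPM in male controls, 110 to 133 in male mutants, 193 to 306 in female controls and 94.7 to 182 in female mutants, so each sex separated by genotype. Kidney weight, as a percentage of body weight (KBW, 1 kidney), was 0.692 ± 0.117 in male controls, 1.68 ± 0.338 in male mutants, 0.615 ± 0.0448 in female controls and 1.18 ± 0.261 in female mutants (SD, n = 5).

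Across all mice, 7 of the 9 genes tested differed between mutants and controls. Atf3, Myc, Fosb, Klf6, Junb and Jun rose and Ier3 fell, while Fos and Egr1 missed the threshold. Fosl1 had too few counts to test. A gene was called at an adjusted p under 0.01, the threshold of the study, in edgeR's quasi-likelihood test with Benjamini-Hochberg adjustment over all genes and litter within sex as a term. The 6 that rose are set beside 10.0% of all 14191 genes tested that rose, and the 1 that fell beside 5.86% that fell. The median log2 fold change of the 9 was 1.00, against -0.01 over all genes tested.

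**Figure D1:**
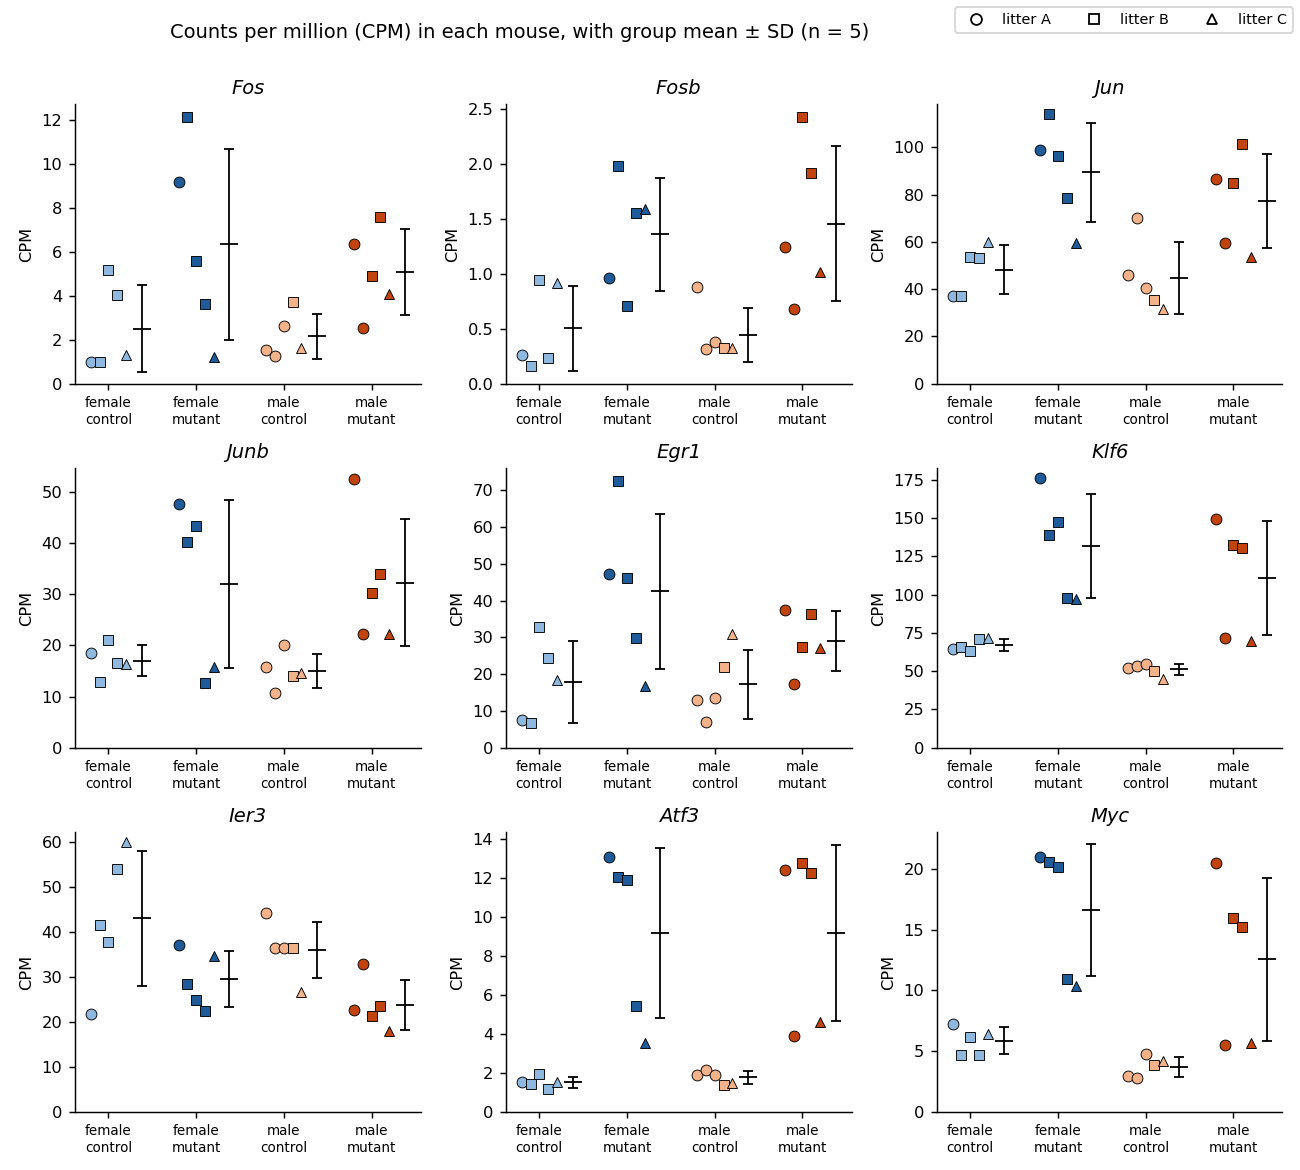
CPM (vertical axis) of the 9 genes tested in each of the 20 mice, by group (horizontal axis), with the group mean ± SD beside the points and litters marked by symbol. Atf3 is the only panel in which the highest control, at 2.16 CPM, lies under the lowest mutant, at 3.52 CPM.

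Within the sexes fewer genes were called. In males 5 of 9 passed, with Junb, Klf6, Atf3 and Myc higher and Ier3 lower, where 5.25% of 14010 genes rose and 3.20% fell. In females 2 of 9 passed, Atf3 and Myc, both higher, where 0.457% of 14439 genes rose and 0.180% fell. Groups did not overlap in CPM for 4 genes in males (Junb, Atf3, Klf6 and Myc, all higher in mutants, as were 8.75% of genes) and for 3 in females (Atf3, Klf6 and Myc, higher, as were 3.73% of genes). No member was lower in mutants without overlap in either sex, where 6.56% of genes in males and 3.33% in females were. The sex-by-genotype term was called for 0 of the 9 members and for 0% of 14820 genes by edgeR. None of the 9 had an unadjusted p under 0.05 for that term, against 4.17% of all genes, and the DESeq2 Wald test also called 0 of the 9. The term ranged from -0.46 (SE 0.596) for Egr1 to 0.27 (SE 0.436) for Junb on the log2 scale, and was 0.11 (SE 0.252) for Klf6, -0.29 (SE 0.501) for Atf3 and 0.14 (SE 0.46) for Myc.

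**Figure D2:**
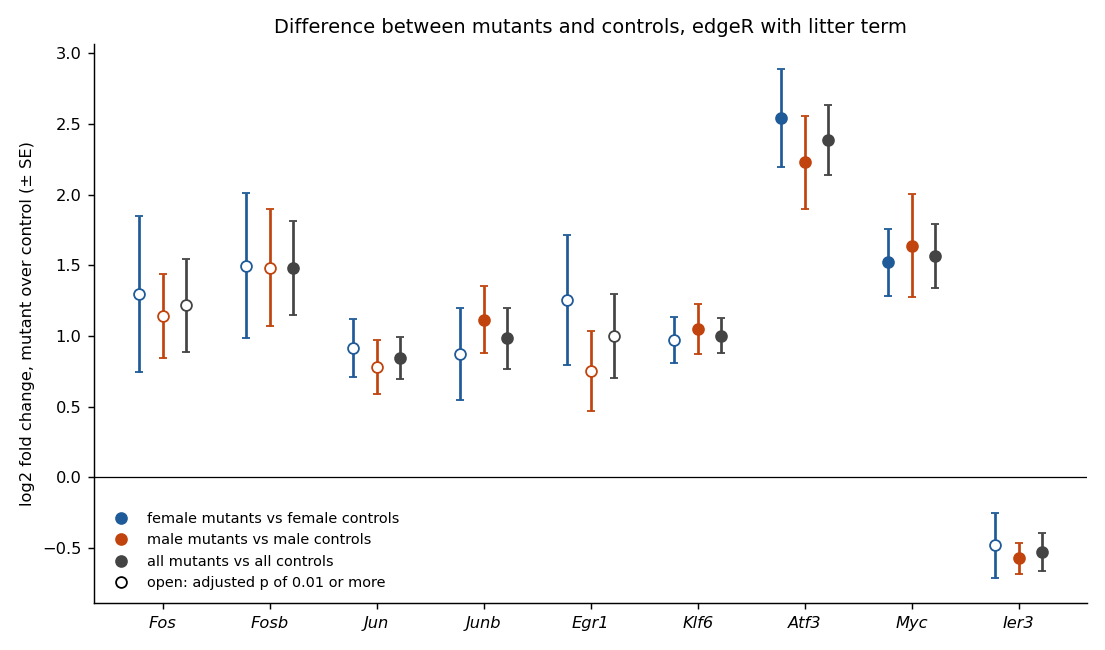
Log2 fold change of mutant over control with its SE (vertical axis) for each gene tested (horizontal axis), in females, in males and in all mice. Filled points have an adjusted p under 0.01. Atf3 has the highest estimate in each comparison, from 2.23 in males to 2.54 in females, and Ier3 is the only gene under 0.

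Fos, the partner of Jun proteins that is most often used as a sign of recent stimulation, was measured at 0.989, 0.982, 5.19, 4.05 and 1.29 CPM in female controls 1 to 5 and at 9.18, 12.1, 5.57, 3.62 and 1.23 CPM in female mutants 1 to 5. It was at 1.54, 1.27, 2.63, 3.73 and 1.61 CPM in male controls and at 6.33, 2.53, 4.91, 7.59 and 4.06 CPM in male mutants. Female controls 3, 4 and 5 lay inside the range of the female mutants and female mutants 4 and 5 inside that of the female controls. In males, control 3 and control 4 lay inside the range of the mutants and mutant 2 inside that of the controls. The log2 fold change over all mice was 1.22 (SE 0.328) with an adjusted p of 0.01002, just over the threshold. It was called without male mutant 2 (adjusted p = 0.0074), female control 3 (0.00747), female mutant 4 (0.00389), female mutant 5 (0.00782) or female control 5 (0.00785). It was also called in 3 of 6 other settings, among them the DESeq2 Wald test (0.00137). In males alone the adjusted p was 0.0203 and in females alone 0.214. The difference was positive in 5 of 6 combinations of sex and litter and -0.06 in females of litter C.

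Fosb, a close relative of Fos, was sparse, with 3 to 37 counts per library. It was measured at 0.264, 0.164, 0.943, 0.238 and 0.911 CPM in female controls and at 0.959, 1.98, 0.709, 1.55 and 1.59 CPM in female mutants. It was at 0.878, 0.318, 0.376, 0.325 and 0.322 CPM in male controls and at 1.24, 0.683, 2.42, 1.91 and 1.02 CPM in male mutants. Mutant 3 overlapped the controls in females and mutant 2 in males. Fosb rose over all mice by a log2 fold change of 1.48 (SE 0.333, adjusted p = 0.00283), a call lost without male control 4 (0.0112). The difference had the same sign in 6 of 6 combinations of sex and litter, from 0.72 to 2.34 on the log2 scale.

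Fosl1, also of the Fos family, had 0 counts in 13 of the 20 libraries and at most 3 in any, at or under the floor of 3 counts used here, so no difference can be read at this depth. In GENCODE M21 57.2% of its exonic bases overlap Ccdc85b on the opposite strand, and whether the counting used strand is not given in the sources used here.

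Jun, which had the most RNA of the zipper protein genes of the set, was measured at 37.2, 37.1, 53.6, 53.1 and 60.0 CPM in female controls and at 98.9, 114, 96.2, 78.5 and 59.6 CPM in female mutants. It was at 46.0, 69.9, 40.4, 35.5 and 31.4 CPM in male controls and at 86.5, 59.6, 85.0, 101 and 53.7 CPM in male mutants. Female mutant 5 and male mutants 2 and 5 lay within the range of the controls. Jun rose over all mice by 0.85 (SE 0.149, adjusted p = 0.00042), 1.80-fold, and was called in each of the 20 fits that left out 1 mouse (adjusted p at most 0.00199). Its difference was positive in 5 of 6 combinations of sex and litter and -0.01 in females of litter C. The antisense gene Junos overlaps 7.28% of its exonic bases.

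Junb, which competes with Jun for Fos partners, was measured at 18.6, 12.8, 20.98, 16.5 and 16.3 CPM in female controls and at 47.6, 40.2, 43.4, 12.7 and 15.8 CPM in female mutants. It was at 15.7, 10.7, 20.1, 14.0 and 14.5 CPM in male controls and at 52.5, 22.3, 30.3, 33.9 and 22.2 CPM in male mutants. Female mutants 4 and 5 were at the level of the controls while the other 3 were above all of them. Junb rose over all mice by 0.98 (SE 0.215, adjusted p = 0.00235), a call lost without male mutant 1 (0.0101). In males the log2 fold change was 1.11 (SE 0.235, adjusted p = 0.00783), but this call was kept without male mutant 2 only and lost without each of the other 9 males (adjusted p up to 0.0426, without male control 4). The log2 fold change was 0.76 to 1.30 in the fits that left out 1 male, where 1.32% to 13.2% of all genes were called. In females it was 0.87 (SE 0.326, adjusted p = 0.153), and 0.0143 without female mutant 4. The difference of Junb was positive in 5 of 6 combinations of sex and litter and -0.05 in females of litter C. Prdx2 overlaps 7.52% of its exonic bases on the opposite strand.

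Egr1, a zinc finger factor induced through serum response factor, was measured at 7.65, 6.60, 32.9, 24.4 and 18.4 CPM in female controls and at 47.3, 72.6, 46.3, 29.9 and 16.7 CPM in female mutants. It was at 13.0, 6.99, 13.5, 21.8 and 31.1 CPM in male controls and at 37.4, 17.2, 27.3, 36.2 and 27.1 CPM in male mutants. Controls alone spanned 4.99-fold in females and 4.44-fold in males, and genotypes overlapped in both sexes. Over all mice the log2 fold change was 1.00 (SE 0.296, adjusted p = 0.0174), and 0 of the 20 fits that left out 1 mouse called it. In litter C both sexes had mutants below controls, by -0.20 in males and -0.14 in females, with 1 mouse per genotype.

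Klf6, a Krüppel-like factor of injury and repair, was the steadiest of the set among controls. It was measured at 64.3, 65.9, 63.2, 71.2 and 71.8 CPM in female controls and at 176, 139, 148, 97.9 and 96.9 CPM in female mutants. It was at 52.0, 53.7, 54.8, 50.0 and 45.01 CPM in male controls and at 149, 72.0, 133, 130 and 69.6 CPM in male mutants. The lowest mutant of each sex was above its highest control. Klf6 rose over all mice by 1.00 (SE 0.124, adjusted p = 2.02e-05), in 6 of 6 combinations of sex and litter and in each of the 20 fits that left out 1 mouse (adjusted p at most 0.000127). In males it rose by 1.05 (SE 0.176, adjusted p = 0.00274), a call lost without male control 3 (0.0105) or male control 4 (0.0225). In females the value was 0.97 (SE 0.161, adjusted p = 0.0116), and it was called without female mutant 4 (0.00191) and in 4 of 7 other settings.

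Atf3 was measured at 1.52, 1.42, 1.95, 1.19 and 1.52 CPM in female controls and at 13.1, 12.05, 11.9, 5.43 and 3.52 CPM in female mutants. It was at 1.90, 2.16, 1.88, 1.38 and 1.48 CPM in male controls and at 12.4, 3.89, 12.8, 12.3 and 4.63 CPM in male mutants. Controls sat in a narrow band and mutants in 2 runs, 6 mice from 11.9 to 13.1 CPM and 4 mice from 3.52 to 5.43 CPM. Atf3 rose over all mice by 2.39 (SE 0.248, adjusted p = 5.04e-06), 5.23-fold. It rose in males by 2.23 (SE 0.331, adjusted p = 0.00166), a call lost without male control 4 (0.0121), the only male control of litter B. In females it rose by 2.54 (SE 0.346, adjusted p = 0.00605), a call that was kept without female mutant 3, female mutant 4 or female control 5 and lost without each of the other 7 (adjusted p up to 0.0311, without female mutant 1). The log2 fold change was 2.38 to 2.83 in the fits that left out 1 female, where 0.0206% to 5.93% of all genes were called.

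Myc was measured at 7.25, 4.69, 6.19, 4.70 and 6.38 CPM in female controls and at 20.99, 20.6, 20.1, 10.9 and 10.3 CPM in female mutants. It was at 2.93, 2.80, 4.73, 3.81 and 4.18 CPM in male controls and at 20.5, 5.47, 16.0, 15.2 and 5.64 CPM in male mutants. Each sex separated by genotype, while male mutants 2 and 5 were below female controls 1, 3 and 5. Myc rose over all mice by 1.57 (SE 0.226, adjusted p = 7.68e-05), 2.96-fold, in 6 of 6 combinations of sex and litter and in each of the 20 fits that left out 1 mouse (adjusted p at most 0.000398). In males it rose by 1.64 (SE 0.364, adjusted p = 0.00953), a call kept without male mutant 2, male mutant 5 or male control 5 and lost without each of the other 7 (up to 0.0556, without male control 4). In females it rose by 1.52 (SE 0.238, adjusted p = 0.00927), a call kept without female mutant 4 only (0.00162) and lost without each of the other 9 (up to 0.0430, without female mutant 1). Over the fits that left out 1 mouse, its log2 fold change was 1.05 to 1.95 in males and 1.39 to 1.71 in females. In those fits 1.32% to 13.2% of all genes were called in males and 0.0206% to 5.93% in females.

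Ier3, an early response gene linked to cell survival, moved the other way. It was measured at 21.8, 41.6, 37.7, 54.2 and 60.1 CPM in female controls and at 37.2, 28.5, 25.0, 22.4 and 34.7 CPM in female mutants. It was at 44.3, 36.5, 36.6, 36.5 and 26.8 CPM in male controls and at 22.8, 33.0, 21.3, 23.6 and 18.1 CPM in male mutants. Female control 1 was the lowest of all 5 female controls and below every female mutant, so the difference was negative in 5 of 6 combinations of sex and litter and 0.77 in females of litter A. Over all mice Ier3 fell by 0.53 on the log2 scale (SE 0.134, adjusted p = 0.00638), a call kept in 7 of the 20 fits that left out 1 mouse, with an adjusted p of up to 0.0214 without male control 4 and 8.50e-05 without female control 1. In males it fell by 0.57 (SE 0.111, adjusted p = 0.00515), a call kept in 3 of 10 such fits, and in females the value was -0.48 (SE 0.229, adjusted p = 0.267). Over the fits that left out 1 male, the log2 value in males was -0.70 to -0.49.

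Levels can be set against each other only per length, and CPM per kilobase of exon was used. In female controls the order was Ier3 (38.1 ± 13.3), Klf6 (15.3 ± 0.907), Jun (15.1 ± 3.28), Junb (7.40 ± 1.32), Egr1 (4.01 ± 2.49), Myc (2.15 ± 0.412), Fos (1.06 ± 0.842), Atf3 (0.705 ± 0.127) and Fosb (0.0807 ± 0.0622; SD, n = 5). Means differed by more than their spread between Ier3 and Klf6, between Jun and Junb and between Atf3 and Fosb, and the other neighbours in this order did not. In male controls Ier3 was again first (31.9 ± 5.50), with Jun (14.0 ± 4.75) and Klf6 (11.6 ± 0.879) after it and within each other's spread. In female mutants Klf6 (29.9 ± 7.73), Jun (28.0 ± 6.55) and Ier3 (26.1 ± 5.55) lay within each other's spread, as did Klf6 (25.2 ± 8.49) and Jun (24.2 ± 6.25) in male mutants. Atf3 per kilobase was below Fos in female controls and at 4.27 ± 2.03 against 2.697 ± 1.85 in female mutants, within the spread.

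Between the sexes, Klf6 was the 1 of 8 genes tested in controls that was called, where 17.8% of 14123 genes were. It was lower in male than in female controls, by -0.38 on the log2 scale (SE 0.0785, adjusted p = 0.0031), and the 2 groups did not overlap. The call was lost without male control 4 (0.0255), male control 5 (0.0162) or female control 5 (0.0169). Myc was at 3.69 ± 0.825 CPM in male and 5.84 ± 1.12 CPM in female controls (log2 value -0.70, SE 0.202, adjusted p = 0.0218). Between male and female mutants edgeR called 0 of 9 genes, where 5.42% of 14416 genes were called, and the DESeq2 Wald test also called 0. Ier3 was the only one of the 9 with an unadjusted p under 0.05 (log2 value -0.39, SE 0.153, adjusted p = 0.115), against 30.5% of all genes.

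Against kidney size, the fit across the 10 mutants with sex as a term called 0 of 9 genes and 0% of 14416 genes by edgeR. An unadjusted p under 0.05 was found for 5 of the 9 and for 22.3% of all genes. The slopes, in log2 units per percentage point of KBW, were 1.87 (SE 0.420, adjusted p = 0.0442) for Junb, 1.78 (SE 0.474, adjusted p = 0.0645) for Myc, 1.11 (SE 0.308, adjusted p = 0.0714) for Klf6 and 1.92 (SE 0.617, adjusted p = 0.103) for Atf3. Those of Egr1, Fos and Jun were 1.26 (SE 0.516), 1.58 (SE 0.861) and 0.56 (SE 0.333), and those of Ier3 and Fosb were -0.32 (SE 0.309) and -0.16 (SE 0.815). The DESeq2 Wald test called Junb (adjusted p = 0.00114) and Myc (0.0064), where it called 4.00% of all genes. The slopes changed with the sex term. Without it they were 1.13 for Junb, 0.52 for Myc, 0.37 for Klf6, 1.03 for Atf3 and 0.14 for Egr1.

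Male mutant 5, at a KBW of 1.71%, had Myc at 5.64 CPM and Klf6 at 69.6 CPM, while female mutant 2, at 1.24%, had Myc at 20.6 CPM and Klf6 at 139 CPM. Pooled over the sexes, the correlation of log2 CPM with KBW was r = 0.665 for Junb (permutation p = 0.035, adjusted over all genes 0.288; Spearman's rho = 0.564, p = 0.0963, adjusted 0.483; n = 10). Without male mutant 1 and female mutant 4, the mice farthest from the median KBW, r was 0.287. They have the highest and lowest KBW of the mutants, so leaving them out also narrows the range of KBW. This value therefore cannot say whether the relation rests on those 2 mice. With sex as a term, the Junb slope was 1.55 to 2.40 when 1 mouse was left out. For Ier3 r was -0.488 (permutation p = 0.153, adjusted 0.496; rho = -0.515, p = 0.134, adjusted 0.528; n = 10), and -0.837 without the same 2 mice. Without female mutant 4 alone, r was 0.504 for Junb and -0.741 for Ier3. The r of Fos, Egr1, Jun and Fosb lay between 0.0198 and 0.383 with adjusted permutation p of 0.611 to 0.988. For Klf6 r was 0.298 (permutation p = 0.402, adjusted 0.716; rho = 0.321, p = 0.369, adjusted 0.712; n = 10) and 0.0743 without the same 2 mice. For Myc r was 0.260 (permutation p = 0.4663, adjusted 0.759; rho = 0.285, p = 0.427, adjusted 0.746; n = 10) and 0.0383 without them. These correlations hold no sex term, unlike the slopes. Atf3 is given no pooled r because the mutants fell into 2 separate runs, and 5 mice per sex are too few for r within a sex.

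**Figure D3:**
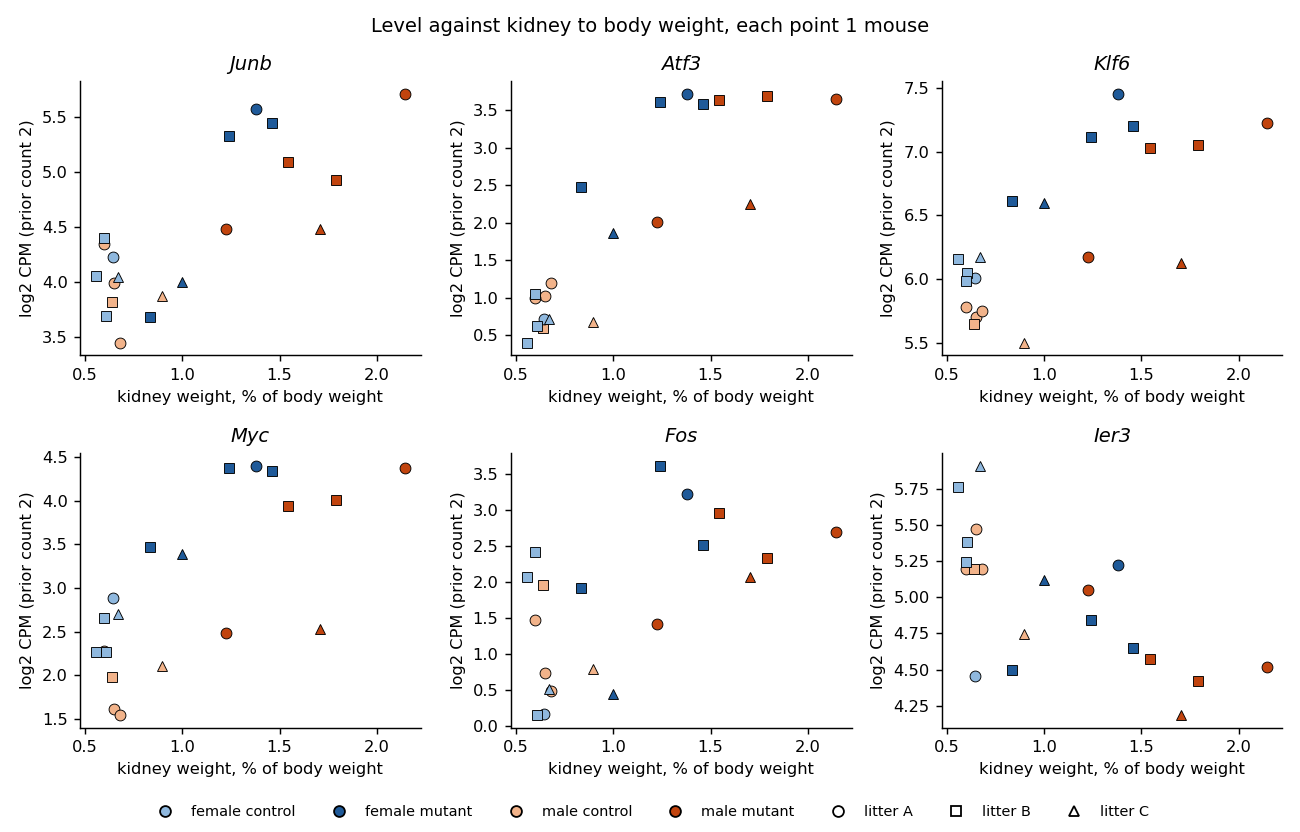
Log2 CPM (vertical axis, prior count 2) against KBW in percent (horizontal axis) for 6 genes, each point 1 mouse, coloured by group and shaped by litter. Controls cluster at KBW of 0.555 to 0.896%, and female mutants 4 (0.836%) and 5 (1.00%) lie under the other 3 female mutants in every panel except that of Ier3.

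The 4 mutants with the lowest Atf3 were male mutants 2 and 5 and female mutants 4 and 5, and the same 4 mice had the lowest Klf6 and Myc of all mutants. Genes of injured tubules (5 of 5 markers higher over all mice) summed to 93.1 and 84.8 CPM in these males and to 47.9 and 61.6 CPM in these females, against 230 to 646 CPM in the other 3 male mutants and 283 to 474 CPM in the other 3 female mutants. Controls were at 11.1 to 18.2 CPM in males and at 17.6 to 24.2 CPM in females. Markers of macrophages (6 of 6 higher), cycling cells (4 of 4) and fibroblasts and smooth muscle (3 of 5) moved with genotype too. Macrophage markers summed to 94.8 to 109 CPM in male controls, 138 to 326 in male mutants, 121 to 153 in female controls and 124.6 to 458 in female mutants. Cycling cell markers summed to 11.4 to 17.1, 42.1 to 115, 9.19 to 21.2 and 29.1 to 109 CPM in those groups, and fibroblast and smooth muscle markers to 101 to 146, 226 to 737, 147 to 237 and 252 to 996 CPM. Male mutants 2 and 5 and female mutants 4 and 5 were the lowest mutants of their sex for each of these sums too. In the order given, the higher value of these males was 148, 45.6 and 258 CPM. The other male mutants were at 217, 82.3 and 470 CPM or more. The higher value of these females was 173, 36.0 and 280 CPM. The other female mutants were at 259, 48.5 and 508 CPM or more. Thick ascending limb and distal tubule markers were lower for 4 of 4 genes, at 7066 to 7304 CPM in male controls, 4483 to 5370 in male mutants, 9647 to 10521 in female controls and 4936 to 7085 in female mutants. Proximal tubule markers (0 of 5 called by edgeR and by the DESeq2 Wald test, 2 with an unadjusted p under 0.05) were abundant in every library, at 5092 to 9777 CPM, which fits the labelled tissue. Markers of collecting duct (3 of 5) and podocytes (3 of 4) were lower, and edgeR called 0 of 5 markers of endothelium, 0 of 4 tested of T and B cells and 0 of 2 tested of neutrophils, with an unadjusted p under 0.05 for 4, 1 and 0 and DESeq2 Wald calls for 1, 0 and 0. Beside these counts, 5346 of all 14191 genes had an unadjusted p under 0.05 in edgeR and 2973 were called by the DESeq2 Wald test. Of the erythroid markers 4 were at 0 in every mouse and the 1 tested was lower. In whole kidney, more cells of a type and more RNA per cell cannot be told apart, and the part of these cell types in the changes of the 10 genes was not tested. Male mutant 5 and female mutant 5 were the only mutants of litter C. In that litter, mutant minus control in log2 CPM was 1.57 in males and 1.15 in females for Atf3. It was 0.63 and 0.43 for Klf6 and 0.42 and 0.69 for Myc, each the smallest of the 3 litters within its sex. The part of litter in the low levels of those mutants was not tested.

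From mouse to mouse, beyond sex and genotype, these genes varied more than most. After group means were removed, the SD of log2 CPM was 0.93 for Fos, 0.79 for Egr1 and 0.67 for Fosb, at percentiles 97.7, 95.4 and 92.0 of 14820 genes, whose median SD was 0.23. Klf6 had the lowest of the 9, with 0.33 at percentile 69.6. Of 14819 genes, Egr1 ranked 1 by Spearman's rho with Fos over the 20 mice (rho = 0.856, permutation p = 7e-05, adjusted over all genes 0.079; r = 0.824, p = 0.00016, adjusted 0.158). Without female control 3 and female mutant 5, the mice farthest from the median of Fos, r was 0.756. Btg2, which ranked next (rho = 0.832, permutation p = 1e-05, the smallest the resamples can give, adjusted 0.0494), was above Egr1 by r (0.856, p = 1e-05, adjusted 0.0494), and its r was 0.782 without the same 2 mice. Without female mutant 4 the rho of Btg2 (0.833) also passed that of Egr1 (0.832). The next 3 genes with a mean of at least 1 CPM in a group were Atp1b3, Camk2d and Tmbim1, with rho of 0.823, 0.815 and 0.807. Fosb went with Fos only weakly (r = 0.193, permutation p = 0.465, rho = 0.257, p = 0.367), at Fosb counts that leave much counting error.

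Fos also had positive values with Junb (r = 0.652, permutation p = 0.00636, adjusted 0.285; rho = 0.624, p = 0.00558, adjusted 0.161), Atf3 (r = 0.594, p = 0.00877, adjusted 0.306; rho = 0.511, p = 0.0197, adjusted 0.250), Klf6 (r = 0.516, p = 0.0152, adjusted 0.357; rho = 0.481, p = 0.0248, adjusted 0.277) and Myc (r = 0.513, p = 0.0123, adjusted 0.338; rho = 0.531, p = 0.00736, adjusted 0.178). Without female control 3 and female mutant 5 these r were 0.576, 0.440, 0.520 and 0.476. Without female mutant 4 the rho of Fos was 0.589 with Junb, 0.447 with Atf3, 0.361 with Klf6 and 0.414 with Myc.

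For Myc, the rho was 0.856 with Klf6 (permutation p = 0.0041, adjusted 0.0894; r = 0.865, p = 0.00531, adjusted 0.0743), 0.848 with Junb (p = 0.00039, adjusted 0.0714; r = 0.797, p = 8e-05, adjusted 0.0461) and 0.838 with Atf3 (p = 0.00462, adjusted 0.0917; r = 0.840, p = 0.00458, adjusted 0.0707). Without male mutants 2 and 5, the mice farthest from the median of Myc, r was 0.772 with Klf6, 0.823 with Junb and 0.759 with Atf3. Those 2 mice and female mutants 4 and 5 were the lowest mutants of their sex for each of these genes. Removing group means keeps that split, so these values cannot tell it from a graded relation over the 20 mice. These mice were the lowest mutants of their sex for Fos and Egr1 too. The values of Fos with Egr1, Junb, Atf3, Klf6 and Myc therefore carry the same limit. Klf6, Junb and Atf3 ranked 33, 38 and 51 of 14819 genes by rho with Myc. Without female mutant 4 the rho of Myc was 0.730 with Klf6, 0.805 with Junb and 0.765 with Atf3. The 5 genes nearest to Myc were Fxyd5, Ucp2, Tlr2, Aoc1 and Ckap4, with rho of 0.929, 0.922, 0.901, 0.895 and 0.893 and adjusted permutation p of 0.0714 each. Ier3 went with neither, with r of -0.193 with Myc (permutation p = 0.405; rho = -0.206, p = 0.396) and 0.0564 with Fos (p = 0.851; rho = -0.0165, p = 0.955). The 20 points share their libraries and depths, and differences between these correlations were not tested.

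**Figure D4:**
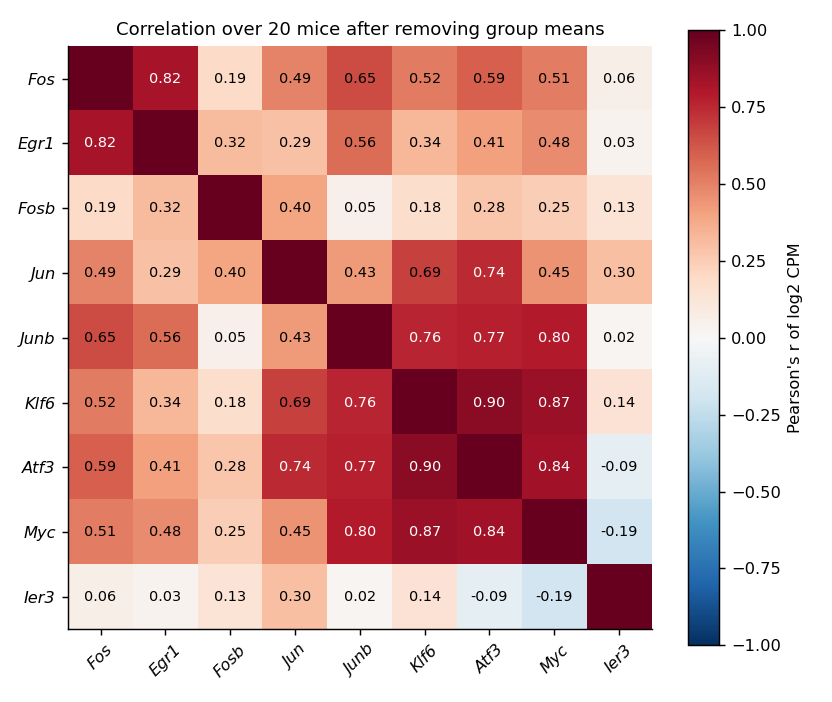
Pearson's r of log2 CPM over 20 mice after group means were removed, for each pair of the 9 genes tested (both axes), on a scale from -1 to 1. Klf6, Atf3, Myc and Junb form a block with r of 0.76 to 0.90, Fos and Egr1 a pair with 0.82, and Ier3 stays between -0.19 and 0.30 with every other gene.

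Of 38 other immediate early genes tested over all mice 19 (beside 10.0% of all genes) rose and 0 (beside 5.86%) fell, with a median log2 fold change of 0.49 against -0.01 over all genes. The 3 with the highest estimates were Egr2 (2.75, SE 0.508, adjusted p = 0.00062), the cytokine signalling inhibitor Socs3 (2.37, SE 0.332, adjusted p = 5.83e-05) and the small Maf protein Maff (1.67, SE 0.24, adjusted p = 7.63e-05). In males 9 of 38 rose, beside 5.25% of all genes, and in females 2 of 39, beside 0.457%. Of 14 genes tested with known AP-1 sites 10 rose, beside 10.0% of all genes, and 0 fell, led by the protease inhibitor Timp1 (5.28, SE 0.49, adjusted p = 1.91e-06), the matrix protease Mmp3 (3.62, SE 0.416, adjusted p = 1.07e-05) and the hyaluronan receptor Cd44 (2.56, SE 0.301, adjusted p = 1.25e-05), with a list median of 1.05.

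For the factors and kinases that act on these promoters, and for the Myc network and targets, counts are read beside the 10.0% of all genes that rose and the 15.9% called in either direction, and for lists of this size they lie near those shares. Of all 14191 genes, 5346 had an unadjusted p under 0.05 in edgeR and 2973 were called by the DESeq2 Wald test. Of 12 tested genes of serum response factor, its ternary complex partners and the CREB family edgeR and the DESeq2 Wald test called 0, with an unadjusted p under 0.05 for 4 and a median of 0.11. Of 12 MAP kinases Mapk10, which encodes the kinase JNK3, fell by 1.62 on the log2 scale (SE 0.257, adjusted p = 0.00017), and 11 were not called. Of 16 MAP kinase phosphatases and feedback inhibitors 2 rose, Dusp8 (1.15, SE 0.175, adjusted p = 0.000112) and Dusp14 (0.40, SE 0.107, adjusted p = 0.00995). Of 10 other AP-1 and bZIP partners edgeR called 0, with an unadjusted p under 0.05 for 2, and the DESeq2 Wald test called 1. In the Myc network 2 of 13 rose, both Max partners, Mxd3 (1.68, SE 0.363, adjusted p = 0.00211) and Mxi1 (0.28, SE 0.0663, adjusted p = 0.00428). Of 26 Myc target genes of nucleolus and growth 4 rose and 0 fell, with a median of 0.11 and, as for the Myc network, a share near that of all genes. The highest estimates were for the glycolytic enzyme Hk2 (1.87, SE 0.337, adjusted p = 0.000515), the polyamine enzyme Odc1 (0.53, SE 0.118, adjusted p = 0.0026) and cyclin Ccnd2 (0.48, SE 0.118, adjusted p = 0.00577).

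**Figure D5:**
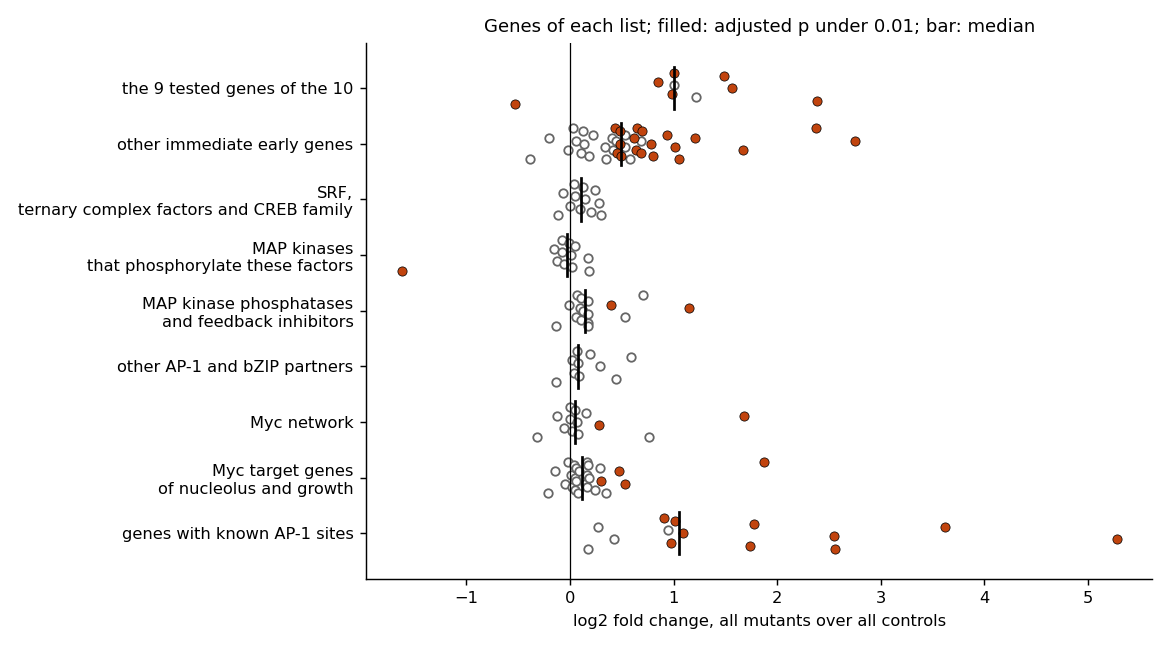
Log2 fold change of all mutants over all controls (horizontal axis) for each gene of the lists named on the vertical axis. Filled points have an adjusted p under 0.01 and bars are list medians, at 1.00 for the 9 genes tested of the 10, 0.49 for other immediate early genes and 1.05 for genes with known AP-1 sites, against 0.11 for Myc targets.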

How the data were processed

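Whole-kidney total RNA of 20 mice was sequenced, 1 library per mouse. The deposited values are raw counts per gene symbol, made by the authors after trimming (fastp 0.23.2) and alignment to mm10 (STAR 2.7.10b). The counting tool, its annotation and its use of strand are not given in the sources used here. The other deposited file describes the series and was not used. All 20 columns were mapped to mice by name.

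The 10 genes and the gene lists were chosen with earlier results of these data known. Counts were fitted in R 4.3.3 with edgeR 4.0.16 (TMM scaling, filterByExpr, quasi-likelihood test, litter as a term), with Benjamini-Hochberg adjustment over all genes tested and calls at 0.01. Litter within sex was the term for all mice, and sex was the term for the slope on KBW. CPM used TMM library sizes, and log2 CPM a prior count of 2. Correlations had two-sided permutation tests with 100000 resamples, adjusted over all genes. Alternatives were DESeq2 1.42.0 (size factors, or its Wald test), other filters, robust dispersion, other terms and leaving out each mouse in turn. Fits were tested on simulated counts. The genes named besides the 10 were Pkd2, up to 3 called genes per list with the largest log2 fold change over all mice and a mean of at least 1 CPM in a group, and the 5 genes nearest to Fos and to Myc by Spearman's rho. Gene positions and exonic lengths came from GENCODE M21 (GRCm38) and promoters from RefSeq. Total counts of 11307741 to 19324073 per library set the precision, and intervals from a single count were not used. The mice are separate animals, but littermates share a litter.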

Additional observations from a re-analysis of the deposited data

Results flagged for a closer look

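In groups of 5 mice, a value was picked out when its gap to the nearest mouse, over the range of the group, exceeded Dixon's 95% critical value, which chance does in about 1 in 20 groups. Of 40 groups tested, the 9 genes and KBW in each of the 4 groups, 2 met it. Fosb was at 0.878 CPM in male control 1, against 0.318 to 0.376 CPM in the other male controls. KBW was 0.896% in male control 5, against 0.599 to 0.678% in the other male controls.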

How the results depend on the processing

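Over all mice, 5 to 8 of the 9 genes were called in the fits that left out 1 mouse and 7 to 8 under the other settings. In males the 5 calls became 7 with the DESeq2 Wald test, 6 with no filter on low counts, 3 with robust dispersion, 3 with all 20 mice in 1 fit and 0 to 7 when 1 mouse was left out (0 without male control 4, the only male control of litter B, and 7 without male mutant 2). Of all genes 8.46% were called in males, 14.3% with the DESeq2 Wald test, 1.32% without male control 4 and 13.2% without male mutant 2. In females the 2 calls became 4 with the DESeq2 Wald test and 0 to 3 when 1 mouse was left out. Of all genes 0.637% were called in females, 6.43% with the DESeq2 Wald test, 0.0206% without female control 2 and 5.93% without female mutant 4. Calls of the members and the share over all genes moved together in the fits whose shares are given so far. They did not in 2 other fits of the males. With no filter on low counts 6 members and 8.21% of all genes were called, and with no litter term 4 members and 9.81%. Between the control sexes the 1 call became 0 with all 20 mice in 1 fit and 0 to 1 when 1 mouse was left out. Of all genes 17.8% were called there, 11.5% with all 20 mice in 1 fit and 8.57% without male control 4. For the slope on KBW the 0 calls became 2 with the DESeq2 Wald test. The slope of Fosb, -0.16, was 0.056 with no sex term and 0.15 with sex and litter as terms, and -1.17 to 0.31 when 1 mouse was left out. That of Ier3, -0.32, was -0.60 to 0.20 when 1 mouse was left out. Where a mouse was left out, fewer samples were tested. The cause of the other changes was not tested. No paired analysis was possible because the replicate numbers were given in accession order and pair no mice, and litter was already a term.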
